A study of Mus musculus with 12 samples.

Results

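Mural nuclei were those nuclei of newborn mouse forebrain that held RNA of the cells wrapped around blood vessels. A nucleus was taken as mural when it held at least 3 unique molecular identifiers (UMIs, tags that each mark 1 captured RNA molecule) of Pdgfrb, Rgs5, Abcc9 and Notch3 together, with at least 2 of these genes detected. It also had to hold more UMIs of these genes than of the fibroblast genes Col1a1, Col1a2, Col3a1 and Dcn, and no more than 3 UMIs of the endothelial genes Flt1 and Mecom. The rule was applied to nuclei with 800 to 6000 UMIs, 300 to 3000 genes and at most 1% mitochondrial UMIs. It found 379 mural nuclei among the 101802 nuclei within these limits, of 126684 barcodes in all, which is 0.372% (95% Wilson interval 0.337% to 0.412%). The nuclei were thus chosen by their measured UMIs of these genes, whose levels in mural nuclei are given as a description with no test.

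The nuclei came from the forebrain, as the labels give it, of 8 wild-type (WT) and 4 heterozygous (Het) mice at postnatal day 1 (P1). WT and Het animals alike were of the MYT1L S710fsX line on a C57BL/6 background, and the Het animals carried 1 frameshift allele of Myt1l in the germline, thus in every cell and not in mural cells alone. Myt1l encodes a transcription factor of neurons. The animals came from 4 litters, which the labels do not tie to libraries. WT 6, WT 7, WT 8 and Het 4 were from females and the other 8 libraries from males. Tissue had been flash-frozen, nuclei had been fixed, and all libraries were barcoded on the same plates, with 1 animal to a library and 0 barcodes shared between libraries. Libraries held 15439429 to 40784144 UMIs in all barcodes and 4799 to 11750 nuclei within the limits, with library medians of 1787.5 to 2218 UMIs per nucleus. Mural nuclei had a median of 1376 UMIs and 998 genes and held 702607 UMIs together.

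Mural cells are the pericytes of capillaries and the smooth muscle cells of arteries and veins. Endothelial cells release PDGFB, which binds the receptor PDGFRB on pericytes and holds them at the growing vessel, and NOTCH3 receives signals from ligands on neighbouring cells and keeps mural cells differentiated. In the brain, pericytes share a basement membrane with the endothelium, take part in the blood-brain barrier, and carry a potassium channel made of ABCC9 and KCNJ8 that couples their tone to metabolism.

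The label was checked against 18 further genes of pericytes that the rule did not use. Among the 4 genes of the rule, Pdgfrb was detected in 301 of 379 nuclei (79.4%), Abcc9 in 299 (78.9%), Notch3 in 264 (69.7%) and Rgs5, a regulator of G protein signalling, in 249 (65.7%). All 4 were detected in 103 nuclei, 3 in 149 and 2 in 127. Nuclei with all 4 genes held a mean of 20.2 UMIs of the 18 pericyte genes and 0.507 UMIs of 6 astroglial markers (Slc1a3, Slc1a2, Aqp4, Gja1, Aldh1l1 and Fabp7). These nuclei carried the profile that the label names.

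A group of 56 nuclei (14.8%), in which Pdgfrb and Notch3 were the only rule genes detected, went against the label. They held a mean of 1.76 UMIs of the 18 pericyte genes, with a median of 0, and a mean of 9.09 astroglial UMIs. At least 2 astroglial UMIs were found in 50 of the 56 (89.3%), against 46 of the 323 other mural nuclei (14.2%), which held a mean of 16.3 pericyte UMIs and 0.792 astroglial UMIs. Summed over nuclei, the 6 astroglial markers stood at 3882 CPM (counts per 1000000 UMIs) in the 56 nuclei and at 447 CPM in the other 323, and the 18 pericyte genes at 751 and 9238 CPM. Slc1a3, the glutamate transporter of astroglia, was at 2090 CPM in the 56 nuclei and at 285 CPM in the others. The 56 nuclei also had more UMIs each, with a median of 1828 against 1273, and 46 of them held exactly 3 UMIs of the rule genes. Their share of a library's mural nuclei ran from 2.22% in Het 3 to 45.8% in WT 1 and 50% in WT 8. They are named here by their rule genes, as Pdgfrb and Notch3 nuclei, and shares, ranges and genotype calls are also given with Rgs5 or Abcc9 required, a step chosen after seeing the data.

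**Figure D1:**
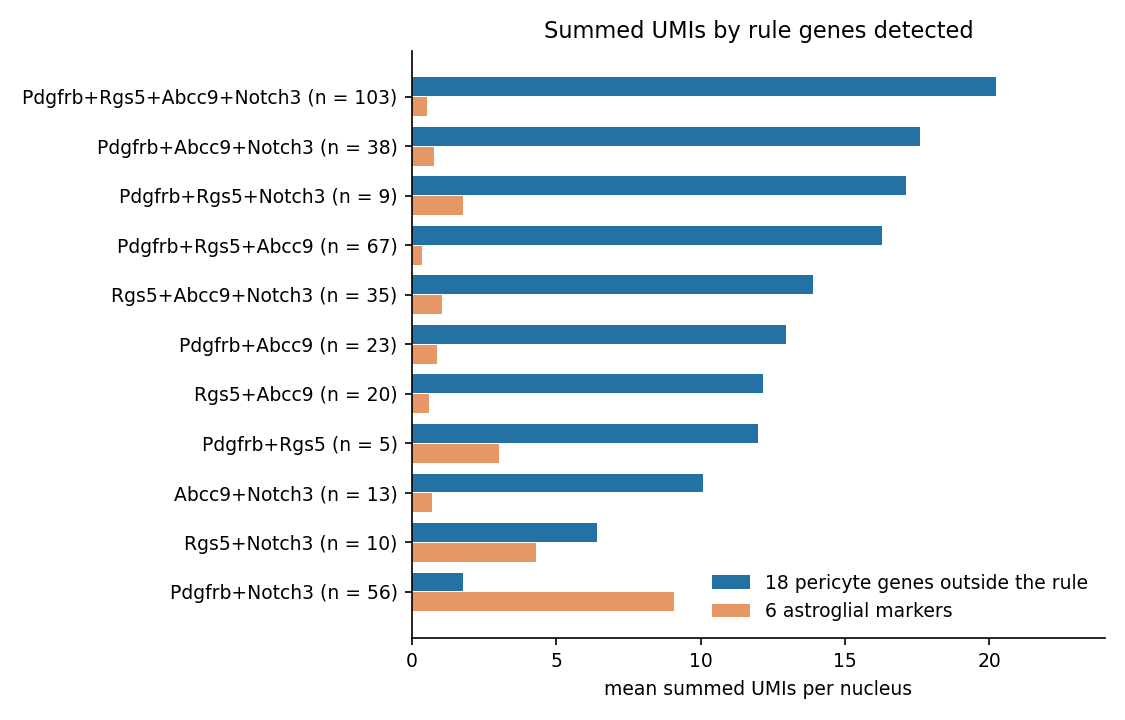
Mean UMIs per nucleus, on the horizontal axis, of the 18 pericyte genes outside the rule (blue) and of the 6 astroglial markers (orange), for each combination of rule genes detected in a mural nucleus, with the number of nuclei. The bars cross over at the bottom: nuclei with Pdgfrb and Notch3 alone held 1.76 pericyte and 9.09 astroglial UMIs, and nuclei with all 4 genes held 20.2 and 0.507.

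The same contrast ran along the threshold of the rule. Of the 379 nuclei, 96 held 3 UMIs of the rule genes, 48 held 4 and 235 held 5 or more, with a median of 6 and a highest value of 23. Just outside, 9 to 29 nuclei per library met the rest of the rule with 2 UMIs. From the 3-UMI nuclei through the 4-UMI nuclei to those with 5 or more, the summed pericyte genes stood at 2209, 6971 and 10686 CPM and the astroglial markers at 2615, 1000 and 299 CPM. Pericyte RNA was thus lowest in the nuclei at the edge of the rule, which had a median of 1924 UMIs, against 1129.5 and 1230 in the other 2 bands.

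Mural nuclei were a small and variable share of every library. From WT 1 to WT 8 the share was 0.217%, 0.723%, 0.322%, 0.50%, 0.305%, 0.111%, 0.50% and 0.167%. From Het 1 to Het 4 it was 0.502%, 0.410%, 0.383% and 0.227%. The range of the Het libraries lay wholly within that of the WT libraries. Counting error alone was wide, with 95% Wilson intervals of 0.0536% to 0.228% for the 7 nuclei of WT 6 and 0.553% to 0.945% for the 53 nuclei of WT 2.

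The mean share of the 8 WT libraries was 0.356% ± 0.205 (SD, n = 8) and that of the 4 Het libraries 0.380% ± 0.114 (SD, n = 4), a difference of 0.0248 percentage points that was smaller than the spread between libraries (two-sided exact permutation test over libraries, p = 0.820, also 0.820 after Benjamini-Hochberg adjustment over 5 measures; the smallest p this design allows is 0.00404). With Rgs5 or Abcc9 required the means were 0.294% and 0.337% (exact permutation test, p = 0.699). A lower share and less RNA of these genes per nucleus cannot be told apart by a rule that counts UMIs, and when each nucleus was thinned to 800 UMIs before the rule the means were 0.272% and 0.317%.

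**Figure D2:**
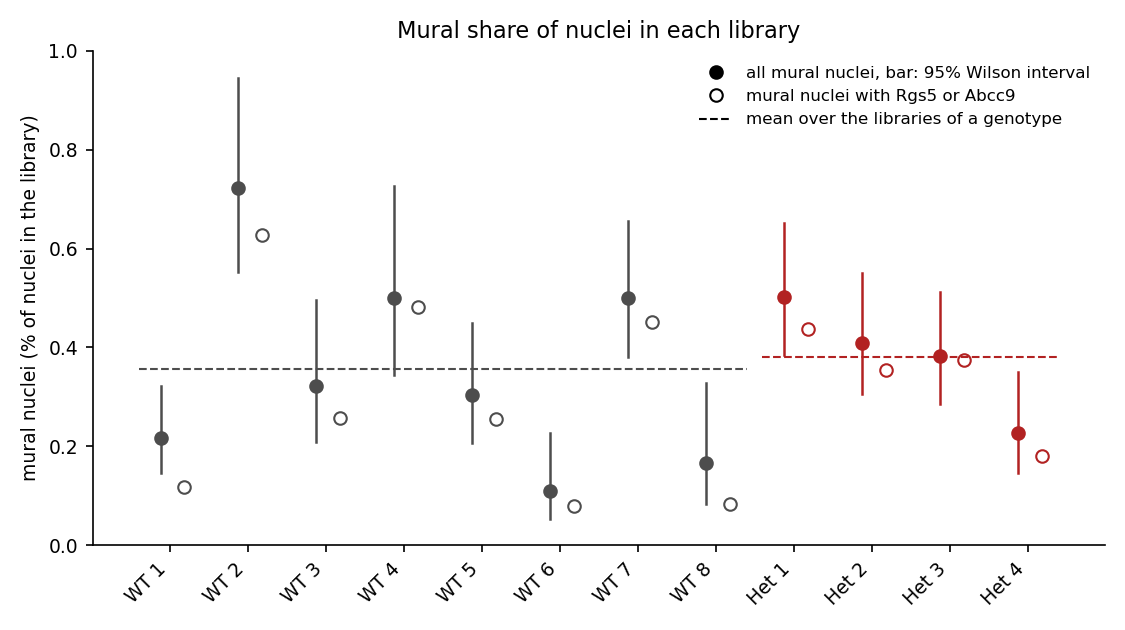
Mural nuclei as a percentage of the nuclei in each library (vertical axis), WT in grey and Het in red. Filled points with bars give all mural nuclei with the 95% Wilson interval, open points those with Rgs5 or Abcc9, and dashed lines the genotype means of 0.356% and 0.380%. The 4 Het points lie within the spread of the 8 WT points.

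Libraries with more mural nuclei also held more endothelial nuclei, the cells that mural cells surround. Endothelial nuclei had at least 4 UMIs of Flt1, Mecom, Cldn5 and Slco1a4 with at least 2 of these detected, more than of the summed mural and of the summed fibroblast genes, and 1028 were found, of which 4 also met the mural rule. Across the 12 libraries, the shares of both had a Pearson r of 0.840 (permutation p = 0.0009, adjusted 0.0036 over 4 relations) and a Spearman rho of 0.832 (permutation p = 0.00144, adjusted 0.00576). Without WT 2 and Het 1, the libraries farthest from the median endothelial share, r was 0.696. Among the 8 WT libraries r was 0.915 (exact permutation p = 0.00526) but rho, 0.714, did not pass the test (exact permutation p = 0.0576). Among the 8 male libraries r was 0.839 (exact permutation p = 0.00704) and rho 0.905 (exact permutation p = 0.00456), and r was 0.813 over the 12 libraries with Rgs5 or Abcc9 required. Both shares have the nuclei of the same library as their denominator.

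The relation to fibroblast-type nuclei, which held at least 3 UMIs of the fibroblast genes with at least 2 detected and more than of the mural genes, was also computed. For these 2375 nuclei r was 0.633 (permutation p = 0.0272, adjusted 0.0325) and rho 0.587 (permutation p = 0.0501, adjusted 0.0523). It rested on WT 1 and WT 2, without which r was 0.352. Among the 8 WT libraries r was 0.724 (exact permutation p = 0.0427) and rho 0.667 (exact permutation p = 0.0831). Among the 8 male libraries r was 0.740 (exact permutation p = 0.0295) and rho 0.738 (exact permutation p = 0.0458). Whether the correlations with the endothelial and the fibroblast type differed was not tested.

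Set against the endothelial nuclei of the same library, mural nuclei numbered 24.1 to 100 per 100 endothelial nuclei in WT and 24.7 to 67.2 in Het. The means were 47.4 ± 25.0 (SD, n = 8) and 38.2 ± 19.7 (SD, n = 4), a difference of -9.19 (exact permutation test, p = 0.570, adjusted 0.75). With Rgs5 or Abcc9 required the means were 36.1 and 34.4, and the difference ran from -24.0 with at least 2 rule UMIs to -0.478 with at least 4. It changed sign with at least 5, a minimum chosen after seeing the data. No difference beyond the spread of the libraries was detected on either scale.

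Levels below are CPM of counts summed over the mural nuclei of a library, as mean ± SD over the 10 libraries with at least 10 mural nuclei (WT 1 to 5, WT 7 and Het 1 to 4). They are set beside the same genes in endothelial, fibroblast-type and excitatory neuron nuclei of those libraries as a description. The excitatory nuclei, 18323 in all, had at least 3 UMIs of a short list of excitatory neuron genes, among them Neurod6, Neurod2 and Tbr1, with at least 2 genes detected, and met none of the other rules.

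Of the rule genes, Abcc9 had the largest share of its RNA in mural nuclei. This regulatory subunit of the potassium channel lies at chr6:142587862-142702315 and Kcnj8, the pore of the channel, beside it at chr6:142564837-142571614 (mm10, both on the minus strand). Abcc9 stood at 1655 ± 472 CPM in mural nuclei against 384 CPM in endothelial, 6.19 in fibroblast-type and 3.55 in excitatory nuclei. Kcnj8 was much less sampled, with 56 UMIs, and stood at 85.3 ± 34.5 CPM against 34.3, 0.0706 and 0.23 CPM. After each nucleus was thinned to 800 UMIs, Abcc9 was detected in 65% of 371 mural nuclei, 19.8% of endothelial, 0.509% of fibroblast-type and 0.219% of excitatory nuclei. Of all Abcc9 UMIs in nuclei, 34.2% lay in mural and 31.1% in endothelial nuclei, a division that the rules of both classes partly set. The rule gene Rgs5 set the classes apart less, with 16.7% of its UMIs in mural and 50.3% in endothelial nuclei. In thinned nuclei Rgs5 was detected in 49.9% of mural and 32.8% of endothelial nuclei.

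Among the receptors, Pdgfrb stood at 783 ± 197 CPM in mural nuclei, with 210 CPM in endothelial and 88.6 CPM in fibroblast-type nuclei. Its ligand Pdgfb was at 11.7 CPM in mural nuclei against 170 CPM in endothelial nuclei, and the related ligand Pdgfd at 35.2 against 358 CPM. The level of the receptor was set by the rules of both classes, which use it, while the 2 ligands are in no rule and were lower in mural nuclei. Tek, the receptor for angiopoietins on endothelium, was at 88 CPM against 684 CPM, and Angpt1, its ligand made by mural cells, at 140 CPM in mural, 61.2 CPM in endothelial and 253 CPM in fibroblast-type nuclei.

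Notch3, also a gene of the rule, stood at 625 ± 120 CPM in mural nuclei against 101 CPM in endothelial nuclei. Of the Notch genes outside the rule, Notch1, the endothelial receptor, was at 193 against 323 CPM and the ligand Dll4 at 9.35 against 56.9 CPM. The Notch target genes Heyl (102 against 21.9 CPM) and Hey2 (44.2 against 7.53 CPM, from 31 UMIs) were higher in mural than in endothelial nuclei, while Hes1 (22.5 against 34.0 CPM) and Hey1 (2.04 against 30.3 CPM, from 2 UMIs) were lower. The 16 Notch genes outside the rule summed to 2439 CPM in mural and 2424 CPM in endothelial nuclei, so the list as a whole did not set the classes apart. Only 9.60% of Notch3 UMIs lay in mural nuclei and 6.65% in endothelial nuclei, against 34.2% and 31.1% for Abcc9. Notch3 is also made by neural progenitors and astroglia, and the Pdgfrb and Notch3 nuclei above carried astroglial RNA.

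The 18 pericyte genes outside the rule were all detected and summed to 7903 CPM in mural nuclei, against 3016 CPM in endothelial, 1532 CPM in fibroblast-type and 165 CPM in excitatory nuclei. Ebf1, a transcription factor, stood at 2501 ± 823 CPM against 1377 CPM in endothelial nuclei. Atp13a5, a transport ATPase of brain pericytes, stood at 1537 ± 546 CPM against 306 CPM, and 34.0% of its UMIs lay in mural nuclei. Another 27.8% of Atp13a5 UMIs lay in endothelial nuclei, shares close to those of Abcc9. By level, Atp13a5 separated mural from endothelial nuclei more sharply than Ebf1 did. Cald1, which encodes the actin-binding caldesmon, was at 1269 ± 375 against 461 CPM, and the gap junction gene Gjc1 at 490 ± 158 against 176 CPM. Vtn (vitronectin) at 189 ± 69.1 CPM, Cspg4 (the NG2 proteoglycan) at 226 CPM and Mcam at 228 CPM were also above their endothelial levels of 102, 76 and 99.5 CPM. Slc6a20a, Lamc3 and Anpep were exceptions, with their highest mean in fibroblast-type nuclei (530, 123 and 42.7 CPM against 260, 81.3 and 34.2 CPM in mural nuclei).

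**Figure D3:**
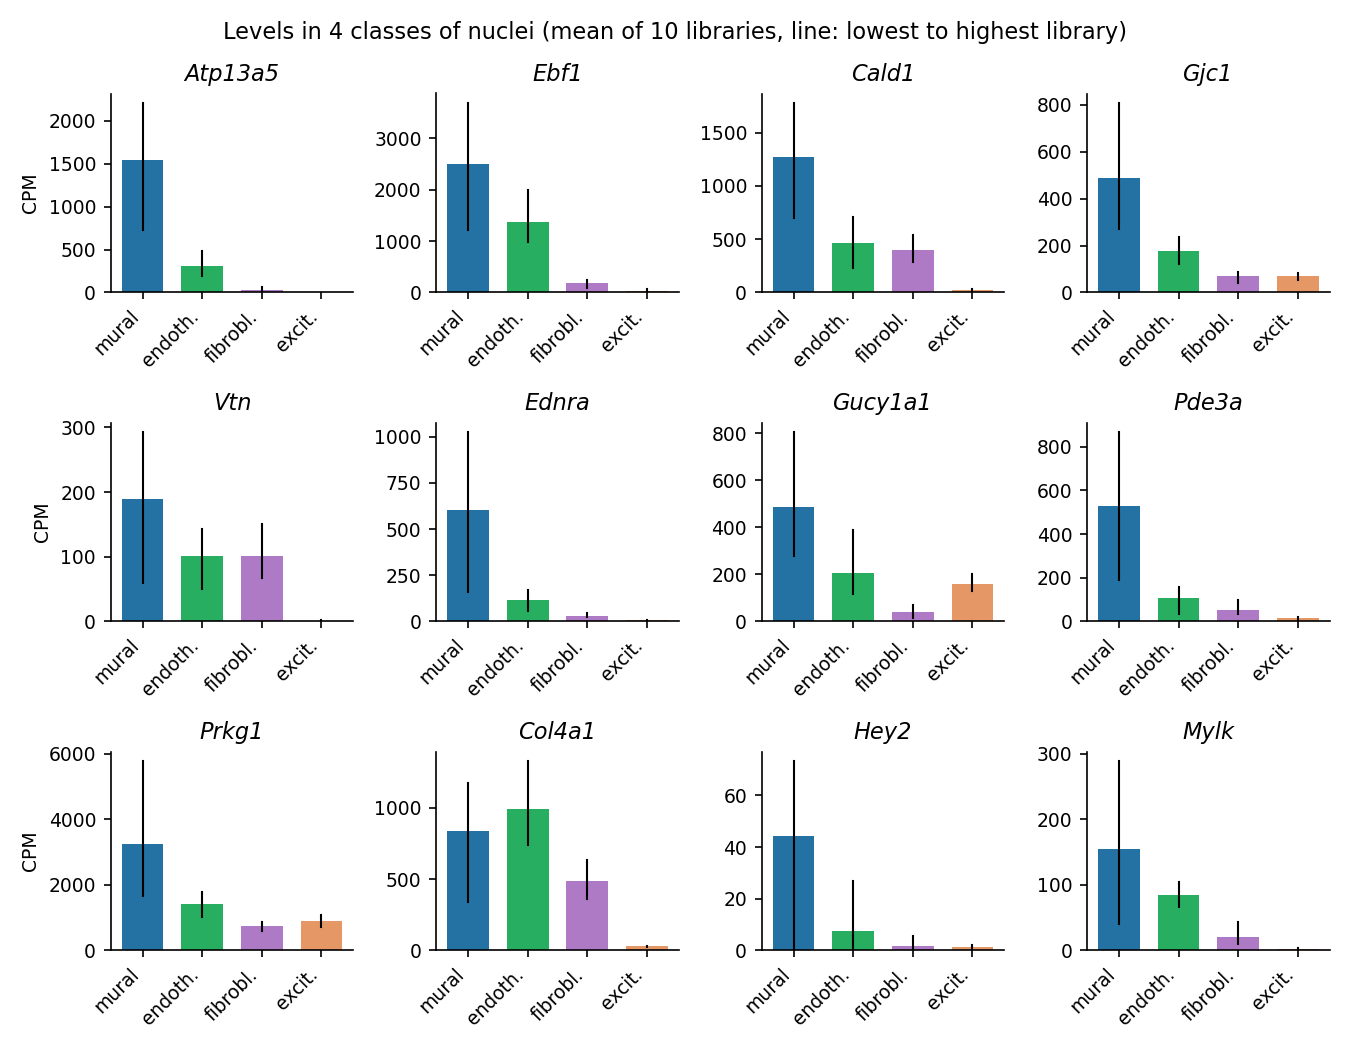
Mean CPM over 10 libraries (bars, linear axis from 0, scaled per gene) of 12 genes in mural, endothelial, fibroblast-type and excitatory nuclei, with lines from the lowest to the highest library. Atp13a5 (1537 against 306 CPM), Ednra, Pde3a and Hey2 are highest in mural nuclei by a wide margin, Ebf1 and Prkg1 by less, and Col4a1 (834 against 989 CPM) is not highest there.

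Several genes of tone and cyclic GMP signalling were also higher in mural nuclei, though not all of their list. The 19 genes of this list summed to 10516 CPM in mural nuclei. They summed to 5389 CPM in endothelial, 4604 CPM in fibroblast-type and 5317 CPM in excitatory nuclei. Prkg1, the cyclic GMP dependent kinase that relaxes vessels, stood at 3240 ± 1122 CPM against 1418 CPM in endothelial and 902 CPM in excitatory nuclei. Ednra, the endothelin receptor of mural cells, stood at 602 ± 264 CPM against 116 CPM, and was detected in 37.2% of mural and 7.73% of endothelial nuclei thinned to 800 UMIs. Both subunits of the nitric oxide receptor, Gucy1a1 (487 against 206 CPM) and Gucy1b1 (354 against 116 CPM), and the phosphodiesterases Pde3a (528 against 108 CPM) and Pde5a (638 against 254 CPM) were higher in mural than in endothelial nuclei. Cacna1c, the L-type calcium channel, was at 1101 CPM in mural nuclei but at 1424 CPM in fibroblast-type and 1016 CPM in excitatory nuclei. Other genes of the list were detected less often in thinned mural nuclei than in another class. Among them were Itpr1 (34.0% against 42.9% in endothelial nuclei), Rock2 (31.3% against 39.9% in endothelial nuclei) and Kcnma1 (12.9% against 48.3% in excitatory nuclei).

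Contractile genes of mature smooth muscle were nearly absent. Acta2 (smooth muscle actin) had 2 UMIs over all 379 nuclei, Tagln had 1, Myh11 (smooth muscle myosin) had 0.333 of a divided UMI, and Cnn1 and Sncg had 0. Mylk, the myosin light chain kinase, was the only one of 15 smooth muscle genes with enough counts for the genotype test and stood at 154 ± 76.6 CPM against 84.4 CPM in endothelial nuclei. Smtn (smoothelin) was at 46.8 CPM in mural and 194 CPM in endothelial nuclei, so it did not mark mural nuclei here.

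Nuclei with at least 2 UMIs and at least 2 genes of the smooth muscle list were taken as a smooth muscle range, which is a range of a score and not a cell type. It held 23 of 379 nuclei (6.07%, 95% Wilson interval 4.08% to 8.94%) from 8 libraries, with Mylk in 20, Smtn in 12, Casq2 and Synpo2 in 5 each and Acta2 in 2. Pericyte genes outside the rule differed among themselves. Cald1 was detected in 95.7% of these 23 nuclei and Ebf1 in 87.0%, against 73.3% and 79.8% of the other mural nuclei, while Kcnj8 was detected in 4.35% against 12.9% and Slc6a20a in 21.7% against 32.6%. They had a median of 9 rule UMIs against 5 in the other 356 nuclei, and a median of 1666 total UMIs against 1359.5. The cut lay in a sparse score: 248 nuclei had no smooth muscle UMI, 97 had some but fewer than 2, and 34 had 2 or more. Per library the range took 5.53% ± 6.82 of WT mural nuclei (SD, n = 6, 0% to 18.5%) and 8.72% ± 5.16 of Het mural nuclei (SD, n = 4, 4.44% to 15%), with no difference beyond the spread (exact permutation test, p = 0.448, adjusted 0.75). With Rgs5 or Abcc9 required the means were 5.77% and 10.3%, and with each nucleus thinned to 800 UMIs they were 0.355% and 4.51% (exact permutation test, p = 0.267). With 1 library left out the difference ran from 1.10 to 5.79 percentage points. In males only it all but vanished and changed sign. The smallest p that 6 against 4 libraries allow is 0.00952.

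A cycling range, set in the same way from 13 cell cycle genes, held 16 nuclei (4.22%, 95% Wilson interval 2.62% to 6.75%) from 8 libraries. Knl1, a kinetochore gene, was detected in 11, Top2a in 10 and Mki67 in 7 of the 16, and 14 of the 16 held Abcc9. WT 4 held 4 of them among its 27 mural nuclei. Per library it took 6.46% ± 5.26 of WT mural nuclei (SD, n = 6, 0% to 14.8%) and 2.03% ± 1.51 of Het mural nuclei (SD, n = 4, 0% to 3.64%), a difference of -4.43 percentage points that did not pass the test (exact permutation test, p = 0.162, adjusted 0.75). The difference was -1.39 percentage points with at least 2 rule UMIs and -1.52 with at least 4, and with Rgs5 or Abcc9 required the means were 7.01% and 2.27%.

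Basement membrane genes were shared with the other vascular classes. The 23 genes summed to 4655 CPM in mural, 8097 CPM in endothelial and 6304 CPM in fibroblast-type nuclei. Collagen IV chains were at 834 ± 269 CPM (Col4a1) and 613 CPM (Col4a2) in mural nuclei, against 989 and 875 CPM in endothelial nuclei. Laminin alpha chains divided by class: Lama4 was at 572 CPM in mural and 1258 CPM in endothelial nuclei, and Lama2 at 289 against 63.9 CPM, with 805 CPM in fibroblast-type nuclei. The fibronectin gene Fn1 was at 178 CPM in mural and 1046 CPM in endothelial nuclei, which leaves it on the endothelial side.

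Among transcription factors, Tbx2 was highest in mural nuclei (122 CPM against 27.9 CPM in endothelial and 3.92 CPM in fibroblast-type nuclei). Tbx18, a factor of mural and meningeal cells, was at 97.9 CPM in mural and 456 CPM in fibroblast-type nuclei, and Zic1 at 392 and 421 CPM, so neither set mural nuclei apart from the fibroblast type. Foxf2, known as a pericyte factor, was at 37 CPM in mural and 115 CPM in endothelial nuclei. Of the transporters, Slc12a2 (the sodium, potassium and chloride cotransporter) was at 424 CPM in mural against 211 CPM in the next class, and Slc19a1 (the reduced folate carrier) at 106 against 54.8 CPM. Xpr1, a phosphate exporter whose loss causes brain calcification, was at 263 CPM in mural and 281 CPM in endothelial nuclei.

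The 20 genes with the highest ratio of mural level to the next class were then taken from the 1513 genes with at least 100 mural UMIs. Several were channels, receptors or phosphodiesterases of the groups above: Trpc6 (6.85-fold), Ano1 (6.21-fold), Ednra (5.20-fold) and Pde3a (4.91-fold), with the rule genes Notch3 (6.20-fold) and Abcc9 (4.31-fold). Pde8b (5.43-fold), Mrvi1 (5.67-fold), which encodes a substrate of the cyclic GMP dependent kinase, Atp13a5 (5.02-fold), Arhgap42 (4.50-fold), a RhoGAP of smooth muscle, and Plce1 (4.49-fold), a phospholipase C, were also among them. Rerg (5.53-fold), Ndst3 (5.21-fold), Specc1 (4.73-fold), Daam2 (4.68-fold), the pseudogene Gm4804 (6.27-fold) and the antisense gene 4833422C13Rik (6.02-fold) were in the list too, with 2 matrix genes described next. The antisense gene overlaps Ssbp2 on the other strand, and no source here says whether the counting kept strands apart, which leaves its reads uncertain.

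Bcan, which encodes the proteoglycan brevican of glia, led the list at 7.40-fold, and the matrix gene Tnc (tenascin C) stood at 5.97-fold. Astroglial nuclei were not among the classes of this ratio. Pooled over nuclei, Tnc was at 2220 CPM in the 56 Pdgfrb and Notch3 nuclei and at 292 CPM in the other 323, and Bcan at 427 and 77 CPM. By library, Tnc in mural nuclei ran from 66.7 CPM in WT 4, where 3.70% of mural nuclei were of that kind, to 2162 CPM in WT 1, where 45.8% were. The part of these nuclei in the levels of other genes was not tested.

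RNA of other cell types was present in mural nuclei at levels set out here for the whole marker lists. The 13 endothelial markers summed to 1012 CPM against 11391 CPM in endothelial nuclei, with Flt1, which the rule limits, at 148 against 2602 CPM and Kdr at 136 against 1177 CPM. The 13 fibroblast markers summed to 874 CPM against 9504 CPM in the fibroblast type, with Lum and Slc47a1 at 0. The 8 pan-neuronal markers summed to 1540 CPM, against 1063 CPM in endothelial, 944 CPM in fibroblast-type and 3988 CPM in excitatory nuclei. The 7 excitatory neuron markers summed to 708 CPM (2828 CPM in excitatory nuclei) and the 5 inhibitory ones found in the files, of 6 listed, to 108 CPM. The 6 astroglial markers summed to 1108 CPM over the 10 libraries, against 265 CPM in endothelial and 1826 CPM in fibroblast-type nuclei. The 6 markers of the oligodendrocyte lineage summed to 1799 CPM, against 1199 CPM in endothelial, 1190 CPM in fibroblast-type and 5805 CPM in excitatory nuclei, so this list was not confined to that lineage here. Olig1, Olig2, Sox10, Pdgfra and Cspg5 had only 4, 7, 2, 12 and 77 UMIs in mural nuclei. The remaining gene of the list made up most of the mural sum. The 5 choroid plexus markers summed to 179 CPM (0 to 919 CPM by library), against 1280 CPM in endothelial, 100 CPM in fibroblast-type and 31.6 CPM in excitatory nuclei. The endothelial nuclei thus held choroid plexus RNA, and its part in the comparisons with endothelial nuclei was not tested. The 4 erythroid markers summed to 15.9 CPM, against 46.1 CPM in endothelial nuclei. The 6 microglial markers summed to 9.03 CPM, with P2ry12, C1qa, C1qb and Tyrobp at 0. Of the mural nuclei, 41 (10.8%) were among the 5% of barcodes with the highest simulated doublet score in their library, and they were kept. Among all nuclei within the limits the marked share was lower. By library this share was lowest in WT 2, with 233 of 7327 nuclei, and highest in Het 3, with 584 of 11750.

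The comparison of Het with WT within mural nuclei asks whether the Myt1l allele goes with a change in the cells of the vessel wall, although Myt1l is known for its role in neurons. Counts were summed per library over mural nuclei and 6 WT and 4 Het libraries entered the fit, WT 6 and WT 8 having only 7 and 8 mural nuclei. These sums held 27298 to 99735 UMIs per library, and 1548 genes had enough counts. No gene was called (0 of 1548, 0%; edgeR quasi-likelihood test, Benjamini-Hochberg adjusted p under 0.05 and an absolute log2 difference of at least 0.2). Before adjustment, 53 genes (3.42%) had a p under 0.05, with Het above WT for 30 (1.94%) and below WT for 23 (1.49%). DESeq2 called 0 genes, with 34 at an unadjusted p under 0.05. On simulated counts of this fit, drawn for 1431 genes, 98.2% of changes of 2 on the log2 scale were called, 45.5% of changes of 1 and 7.02% of changes of 0.5, so a change of 1 or less on that scale was missed more often than called.

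Myt1l in mural nuclei stood at 256 to 939 CPM in WT (median 486) and at 431, 901, 676 and 843 CPM in Het 1 to Het 4. The ranges overlapped, and the means of 542 ± 241 CPM (SD, n = 6) and 713 ± 211 CPM (SD, n = 4) did not differ beyond the spread (log2 difference 0.36, edgeR adjusted p = 0.993). The level was 610 CPM over the 10 libraries against 362 CPM in endothelial, 381 CPM in fibroblast-type and 1780 CPM in excitatory nuclei. Over all nuclei Myt1l was at 1425 CPM in WT and 1567 CPM in Het, and a frameshift need not change the RNA level, so this gene does not check the genotype labels.

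The rule genes showed no consistent separation by genotype, as a description. Abcc9 ran from 1092 to 2491 CPM in WT (median 1575) and was at 1464, 1129, 1912 and 1922 CPM in Het. Pdgfrb ran from 480 to 1172 CPM in WT (median 736) and from 625 to 922 CPM in Het, Rgs5 from 298 to 1511 CPM and from 432 to 912 CPM, and Notch3 from 576 to 770 CPM and from 331 to 677 CPM. All 4 genes overlapped between genotypes.

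Of the 18 pericyte genes outside the rule, 10 passed the filter on low counts and none was called or reached an unadjusted p under 0.05. Their median log2 difference of Het minus WT was -0.30, against -0.01 over all genes tested. The fitted difference of Mcam was -0.54 ± 0.32 (SE, unadjusted p = 0.114, edgeR adjusted p = 0.993). Atp13a5 ran from 794 to 2205 CPM in WT (median 1911) and was at 1474, 730, 1657 and 1297 CPM in Het. Ebf1 ran from 1212 to 3689 CPM in WT (median 2863) and was at 2675, 1957, 2460 and 2066 CPM in Het. For both genes the Het libraries lay within the WT range or, for Atp13a5 in Het 2, just below it. The summed pericyte genes ranged from 4191 to 11408 CPM in WT and from 5361 to 8513 CPM in Het.

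No gene of any other list was called or reached an unadjusted p under 0.05 either. In all, 66 of the 253 listed genes were in the fit. Of the contraction and cyclic GMP list 16 of 19 genes were tested, with a median log2 difference of -0.15, and of the basement membrane list 10 of 23, with a median of -0.00. The Notch list had 3 of 16 genes tested, the mural transcription factors 4 of 16, the TGF-beta and BMP list 2 of 22, the transporters 2 of 10, and the smooth muscle list, the PDGF, angiopoietin and VEGF list and the brain calcification list 1 each. No cell cycle or immediate early gene had enough counts. Most pathway genes were therefore below what these nuclei could test. With genes of low counts kept in, the fit covered 18369 genes and called 15 (0.0817%), and 808 had a p under 0.05 before adjustment (4.4%), 3.04% with Het above WT and 1.36% with Het below. The median log2 difference over all genes of that fit was 0.13, against -0.01 in the main fit, so its values lay toward Het as a whole.

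The 10 genes of smallest unadjusted p all failed the adjustment, and 7 of them had their highest level of the 4 classes in excitatory nuclei, as did 395 of the 1548 genes tested (25.5%). Of the 7, Ralyl, Lingo2, Gria4, Camta1 and Cntnap5b were higher in value in Het and Tnrc18 and Cacna1a lower, beside 253 higher and 142 lower of the 395, and no test was made of this group, which was seen in the data. Ralyl, an RNA-binding protein gene, stood at 289 to 714 CPM in WT (median 374) and at 837, 1563, 899 and 913 CPM in Het, with no overlap (log2 difference 1.27 ± 0.28, SE, edgeR adjusted p = 0.567). With all deposited barcodes the difference turned to -0.38. Lingo2, a synaptic adhesion gene, stood at 39.7 to 897 CPM in WT (median 246) and at 1354, 1201, 739 and 1736 CPM in Het, with Het 3 below WT 5 (log2 difference 1.93 ± 0.48, edgeR adjusted p = 0.567), which fell to 0.52 with all deposited barcodes. Over all nuclei both genes differed by only 0.04 and 0.06 on the log2 scale. In excitatory nuclei they stood at 1823 and 1092 CPM.

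The pan-neuronal markers were also higher in value in Het mural nuclei, and no test was run on their sum. All 8 had UMIs there, and they summed to 440 to 1878 CPM in WT (mean 1326 ± 508, SD, n = 6) and to 1519 to 2778 CPM in Het (mean 1861 ± 612, SD, n = 4), with overlap. Of these, 3 were tested, with a median log2 difference of 0.48. Other lists were also higher in Het, among them the endothelial (1158 against 914 CPM) and excitatory markers (793 against 651 CPM). The fibroblast (818 against 912 CPM), astroglial (931 against 1226 CPM) and erythroid markers (7.60 against 21.4 CPM) were lower. The part of the pan-neuronal markers in the differences of Ralyl, Lingo2 and the other neuronal genes was not tested. Lingo2 was called without WT 5 (log2 difference 2.53, edgeR adjusted p = 0.0199) and with Rgs5 or Abcc9 required (2.08, edgeR adjusted p = 0.0207), in each case as the only gene. Without the filter on low counts Lingo2 was among 15 called genes (edgeR adjusted p = 3.64e-07), in a fit whose median log2 difference over all genes was 0.13. Ralyl (edgeR adjusted p = 0.0090), Cntnap5b (0.0204) and Gm47283 (0.0012) were also among them.

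Of the remaining 5, Tnrc18, Cacna1a and Fam120a were lower in value in Het. Tnrc18, a chromatin protein gene, stood at 145 to 271 CPM in WT (median 240) and at 95.3, 104, 115 and 72.1 CPM in Het (log2 difference -1.15 ± 0.28, edgeR adjusted p = 0.567, and -0.32 with all deposited barcodes). Cacna1a, a presynaptic calcium channel gene, stood at 183 to 289 CPM in WT and 120 to 160 CPM in Het (log2 difference -0.84, edgeR adjusted p = 0.886), and over all nuclei its log2 difference was -0.31 (edgeR adjusted p = 0.279). For these 2 genes WT and Het did not overlap, as for Ralyl, while Fam120a overlapped (147 to 311 CPM in WT and 48 to 165 CPM in Het). All were picked by smallest p, so the lack of overlap is no separate result. How many of all tested genes did not overlap was not counted. Dhx36, a helicase gene, and Gm47283 were higher in value in Het, at 232 against 93.5 CPM and 837 against 254 CPM. Over all nuclei Gm47283 was also higher in value in Het (log2 difference 1.33, edgeR adjusted p = 0.326).

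**Figure D4:**
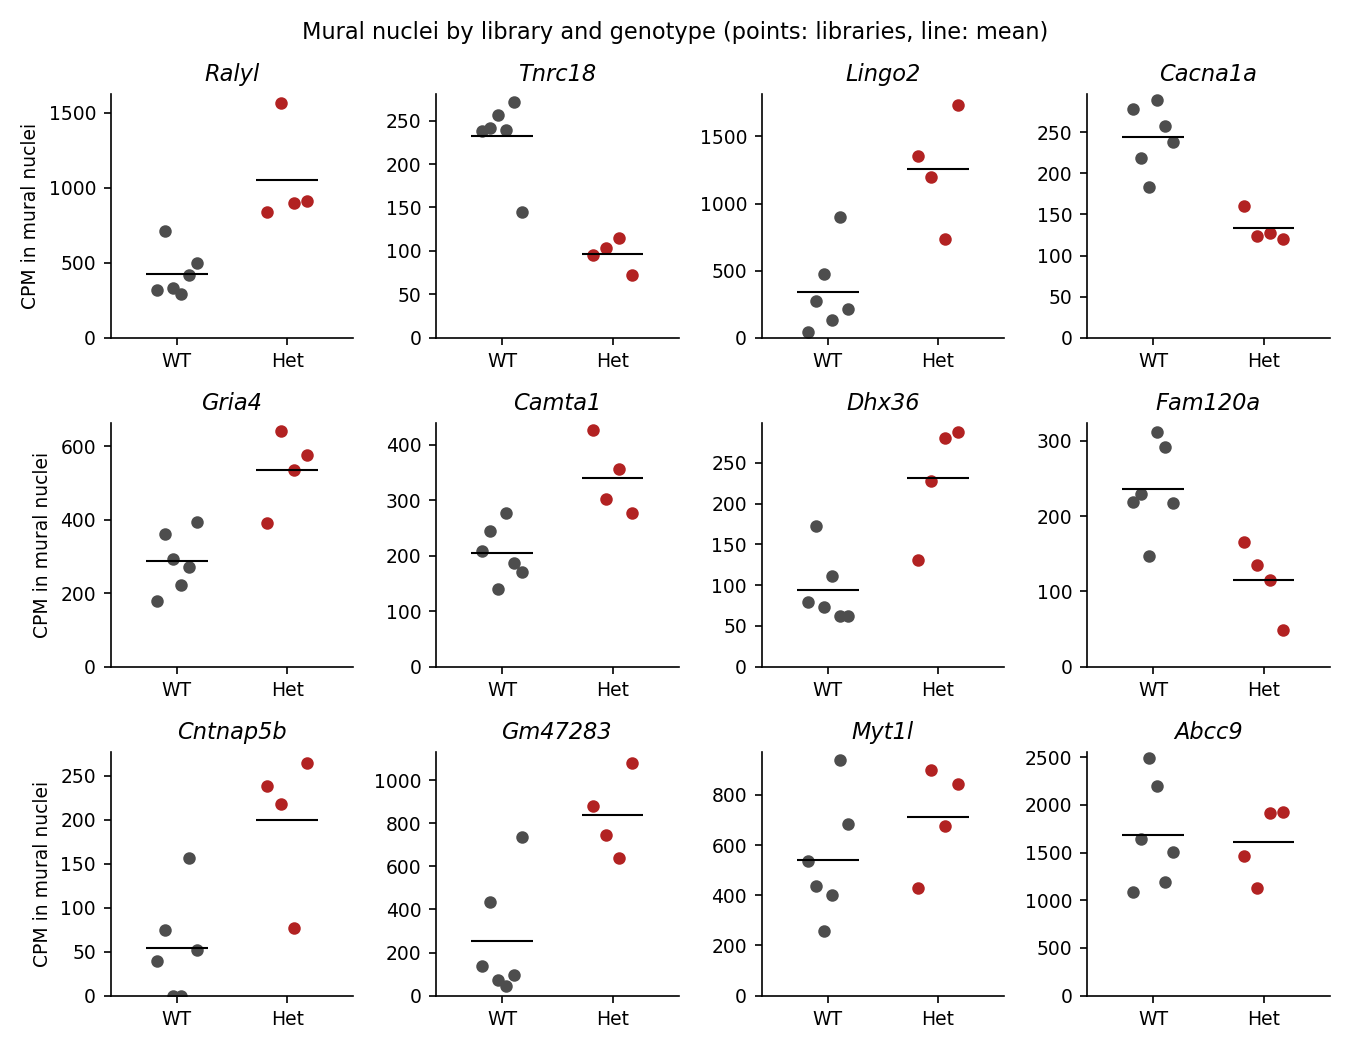
CPM in mural nuclei (linear vertical axis from 0, scaled per gene) of the 10 genes of smallest unadjusted p, of Myt1l and of Abcc9, with 1 point per library (6 WT in grey, 4 Het in red) and lines at the means. Ralyl, Tnrc18 and Cacna1a separate the genotypes without overlap, none passing adjustment and Ralyl changing direction with all deposited barcodes, and Myt1l and Abcc9 overlap. The 10 genes were picked by their p, so this separation is no separate result.

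RNA of mural genes was also compared over all nuclei, which does not depend on the nuclei that the rule picked. In this fit of 20537 genes over 8 WT and 4 Het libraries, 1 gene was called (0.00487%), Gm38340, which is in none of the mural lists and is named here after its values were seen. The count was unstable: no gene was called with the replicate numbers as a block or without WT 8, Het 1, Het 2 or Het 3 (1 library left out at a time), 87 were called without Het 4, 30 in males only and 73 by DESeq2. In the same fit 10.9% of genes had a p under 0.05 before adjustment, 5% with Het above WT and 5.89% with Het below. Of the 18 pericyte genes 15 were tested, none was called, and 1 was at an unadjusted p under 0.05, with a median log2 difference of 0.16 against 0.00 over all genes. In the same fit the median was 0.32 for the 13 endothelial markers and 0.20 for the 23 basement membrane genes, so values above 0 were not particular to the pericyte genes. That gene was Ebf1, with a mean of 173 ± 62.1 CPM over the WT libraries and 279 ± 71.1 CPM over the Het libraries (SD) and a log2 difference of 0.66 ± 0.26 (SE, edgeR adjusted p = 0.382). Only 3.22% of Ebf1 UMIs lay in mural nuclei, so most of the Ebf1 RNA lay in other nuclei. In mural nuclei themselves its log2 difference was -0.19. Of the 15 smooth muscle genes 11 were tested, none was called, and Casq2 was at an unadjusted p under 0.05 (log2 difference 0.59, edgeR adjusted p = 0.374).

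**Figure D5:**
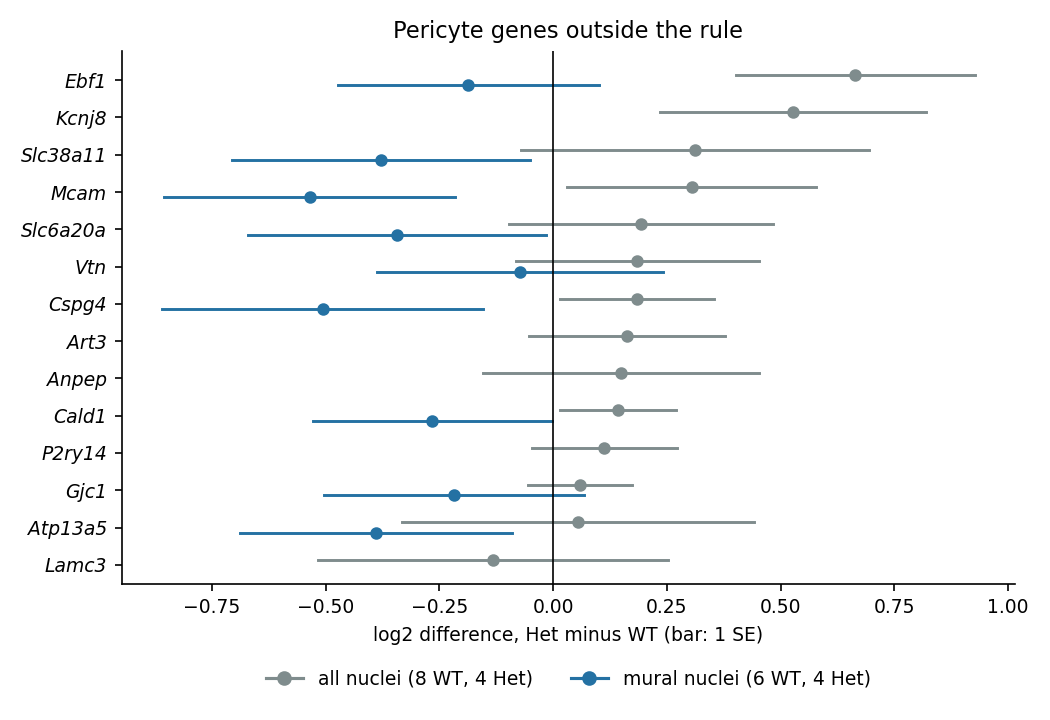
Log2 difference of Het minus WT (horizontal axis, bars 1 SE) for pericyte genes outside the rule that had enough counts, over all nuclei (grey) and over mural nuclei (blue). Most values lie above 0 over all nuclei, led by Ebf1 at 0.66, and below 0 in mural nuclei, down to Mcam at -0.54, and no gene passed adjustment in either fit.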

How the data were processed

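Single-nucleus RNA sequencing libraries of 12 animals were used. The authors ran ScaleRna to map reads to mm10, count UMIs and call nuclei against ambient RNA. They deposited expected counts without normalization, with some UMIs shared out between genes as fractions (6.58% to 6.88% of a library's entries). Because the tests had been planned for whole counts, library sums were rounded before edgeR and DESeq2. No free RNA was subtracted. The annotation used for counting, and its use of strand, are not given in the sources. The files listed 55335 genes, and 54587 identifiers matched GENCODE M21, from which positions were taken. All files were used. Some genes of the lists are counted in list totals but not reported here by name.

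Classes of nuclei were set by gene rules and not by clustering, and may differ from the types named by the study. The members and all gene lists were chosen with earlier results of these data known. Genes were named by a rule: Myt1l, the rule genes, the called genes, the 10 of smallest p where fewer than 10 were called, the 20 with the highest ratio to the next class, and the listed genes. Doublet scores were the fraction of simulated doublets in 50 neighbours, and the top 5% of barcodes per library were removed only as an alternative.

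Counts were summed per library, and libraries with at least 10 mural nuclei were tested with edgeR 4.0.16 in R 4.3.3 (TMM, filterByExpr, genotype as the only term), with DESeq2 1.42.0 as an alternative. Steps were checked on simulated counts with known changes. Shares were compared by exact permutation over libraries, and intervals are 95% Wilson intervals that cover counting error only. A correlation over 12 libraries used 100000 permutations. The alternatives were other UMI minimums, filters, size factors, thinning to 800 UMIs, sex, doublets, all barcodes, a replicate block, and each library left out in turn.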

Additional observations from a re-analysis of the deposited data

Results flagged for a closer look

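Of 40 groups of libraries checked for a value far from the rest, 4 had such a library, and chance gives about 1 in 20 groups. The smooth muscle range held 18.5% of the mural nuclei of WT 4, and the gap to the next WT library was 0.694 of the WT range (n = 6). The median UMIs of the mural nuclei of WT 1 were 1954, with a gap of 0.709 of the range (n = 6). WT 1 was also the library of the 10 tested with the largest share of Pdgfrb and Notch3 nuclei, 45.8%. Ralyl stood at 1563 CPM in the mural nuclei of Het 2, with a gap of 0.895 of the Het range (n = 4), and without Het 2 its log2 difference was still positive. Tnrc18 stood at 145 CPM in the mural nuclei of WT 7, with a gap of 0.739 of the WT range (n = 6), and this WT library was the closest to the Het libraries.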

How the results depend on the processing

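Values of few nuclei limit these results: 7 to 55 mural nuclei per library, and 1548 genes with enough counts. The difference in mural share ran from -0.0156 to 0.0773 percentage points when 1 library was left out, turning negative without WT 6 (-0.0102), WT 8 (-0.00218) or Het 1 (-0.0156). Mural nuclei per 100 endothelial nuclei differed by -18.8 to -1.67 in the same way, by -24.0 with at least 2 rule UMIs, -0.478 with at least 4, -16.4 in males only, -2.98 after thinning, and 0.986 with at least 5 rule UMIs, a minimum chosen after seeing the data. The smooth muscle range differed by 1.10 to 5.79 percentage points with 1 library left out. It differed by -0.00278 in males only and by 4.15 after thinning to 800 UMIs. The cycling range differed by -5.72 to -2.76 with 1 library left out, the smallest without WT 4. That range differed by -1.39 with at least 2 rule UMIs and by -1.52 with at least 4. No p of these tests was under the limit. Genes called in mural nuclei numbered 15 of 18369 without a filter on low counts (13 higher in Het, among them Lingo2, Ralyl, Cntnap5b and Gm47283), 0 to 1 with 1 library left out, and 1 with Rgs5 or Abcc9 required. Over all nuclei, where 1 was called, there were 73 with DESeq2, 30 in males only, 0 among nuclei whose log genes were at least 0.9 of their log UMIs, and 0 to 87 with 1 library left out (87 without Het 4, 2 without WT 1, 0 without WT 8, Het 1, Het 2 or Het 3), and the cause was not tested. With all deposited barcodes Ralyl turned to -0.38 on the log2 scale. Lingo2 at 0.52, Cntnap5b at 0.27, Gria4 at 0.13, Camta1 at 0.04, Dhx36 at 0.23, Tnrc18 at -0.32, Cacna1a at -0.41 and Fam120a at -0.16 kept their direction but were nearer 0. Gm47283 also kept its direction and is not among these genes nearer 0. The cause was not tested. Of the other values for the comparisons, 127 kept their direction and call or, for counts of called genes, stayed equal or close to the main count. Of those for the named genes, 228 kept their direction and call.

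The replicate numbers of the labels were tried as a replicate block within sex. Same-numbered libraries had correlations of -0.143, 0.0844, 0.0456 and 0.212, and no Het library correlated best with its own number. In the edgeR fit the block gave 0 called genes in mural nuclei (79 at an unadjusted p under 0.05). The shares were compared only within pairs: Het 1 with WT 1, Het 2 with WT 2, Het 3 with WT 3 and Het 4 with WT 6. The difference in mural share was 0.0370 (exact sign-flip test over the pairs, p = 0.75). It was -18.6 per 100 endothelial nuclei, 3.08 for the smooth muscle and -1.95 for the cycling range. Both ranges lacked the pair of WT 6, which had too few mural nuclei. With so few pairs no p under 0.05 was possible, so this test could not change a call. Over all nuclei the block removed the only call, Gm38340, and left 0 genes (smallest edgeR adjusted p 0.223).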

Other observations

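Most listed genes fell below the count filter in mural nuclei. Of these, 170 entered the fit when no filter was applied, and 19 of them had a p under 0.05 before adjustment (Het above WT for 11 and below for 8), beside 808 of all 18369 genes of that fit (4.4%). These rest on few UMIs, and only Ranbp3l, a gene of meningeal fibroblasts, was called (log2 difference -3.60, edgeR adjusted p = 0.00142). It stood at 184 CPM in WT 2 and 217 CPM in WT 7, at 0 to 36.6 CPM in the other 4 WT libraries, at 20.1 CPM in Het 1 and at 0 in the other 3 Het libraries, so 2 WT libraries held nearly all of it.

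Hspg2, the basement membrane proteoglycan perlecan, stood at 19.9 to 80.4 CPM in WT (median 39.2) and at 110, 155, 127 and 96.1 CPM in Het, with no overlap, from 59 UMIs (log2 difference 1.45, edgeR adjusted p = 0.644). Pdgfd, a ligand of the receptor PDGFRB, was at 0 in 4 of 6 WT libraries and at 41.7 and 20.7 CPM in the other 2, against 40.1, 72.5, 153 and 24 CPM in Het, from 30 UMIs (edgeR adjusted p = 0.162). Of Hspg2 UMIs 2.42% lay in mural and 29.6% in endothelial nuclei, and of Pdgfd UMIs 0.581% and 17.8%. The 13 endothelial markers summed to 914 CPM in WT and 1158 CPM in Het mural nuclei, with overlapping ranges. Their part in these 2 differences was not tested. The cell cycle gene Mki67 was lower in value in Het (log2 difference -2.13, edgeR adjusted p = 0.644), and it is one of the genes that define the cycling range. Fabp7, an astroglial marker, was also lower in value in Het, from 74 UMIs (log2 difference -1.71, edgeR adjusted p = 0.304). The 10 immediate early genes summed to 0 to 46.3 CPM in WT and 50.1 to 132 CPM in Het. These sums rest on few UMIs, with Egr1 at 9, Jun and Junb at 6 each, and Fos and Fosb at 0. Over all nuclei 3 of the 8 genes tested had an unadjusted edgeR p under 0.05, all with Het above WT, as had 5% of all genes. Their median log2 difference there was 0.33, so this direction was not particular to mural nuclei. None of these was called, and each was picked out after its values were seen. How many of all genes did not overlap between genotypes was not counted, so the lack of overlap of Hspg2 is no separate result.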
